A study of Mus musculus with 4 samples.

Results

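A set of 10 genes, chosen by name, for proteins of the nucleolus and of the box small nucleolar ribonucleoproteins was examined for poly(A) tail length and read number. They are Npm1, Ncl and Nolc1 (nucleolar proteins), Fbl, Nop56 and Nop58 (box C/D proteins), and Dkc1, Nhp2, Nop10 and Gar1 (box H/ACA proteins). All 10 had reads in every library, out of 13831 gene symbols in the deposited table. The samples were J1 mouse embryonic stem cells grown in serum with LIF, wild type (2 libraries, WT 1 and WT 2) or knocked out for Mov10 (2 libraries, KO 1 and KO 2). Mov10 is an RNA helicase, and the series set out to compare tail lengths between these genotypes. Each library was sequenced as native RNA on a nanopore, so that 1 read is 1 molecule with its own tail length in nucleotides (nt). The labels do not say whether the knockout was a single clone or whether the libraries came from separate cultures. P-values therefore measure only the spread between these libraries, in the limma test of tail length as pooled over genes of similar read number.

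The nucleolus is where ribosomal RNA is made, modified and assembled with ribosomal proteins. Small nucleolar RNAs guide the modification by base pairing and act as particles with a fixed set of core proteins. Box C/D particles methylate the ribose of the target, with fibrillarin as the methyltransferase, and box H/ACA particles turn uridine into pseudouridine, with dyskerin as the synthase. Their parts are counted among the growth genes.

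The libraries held from 351133 to 683239 reads with a tail length above 0, and their median tails were 97.3 nt (WT 1), 105.6 nt (WT 2), 105.8 nt (KO 1) and 98.1 nt (KO 2). WT 1 and KO 2 thus had shorter tails over all reads than WT 2 and KO 1, a split that does not follow genotype. The targeted gene Mov10 had 26 and 14 reads in WT and 0 and 1 in KO. All 8 embryonic stem cell markers were read, with a summed level of 9098 and 9350 reads per 1000000 reads (RPM) in WT and 7981 and 6751 RPM in KO, lower in both KO libraries. Of 6 fibroblast feeder markers 1 had reads (9.10 and 5.70 RPM in WT, 11.7 and 14.0 RPM in KO, on 2 to 8 reads) and Col1a1, Col1a2, Col3a1, Postn and Dcn were at 0. Of 8 markers of differentiated lineages 4 had reads (11.4 to 45.6 RPM summed), and Sox17, Foxa2, T and Sox1 were at 0.

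The members together took 15756 reads, 0.828% of all reads, from 0.785% in KO 1 to 0.959% in WT 2. Npm1 alone gave 9542 of them, or 60.6%. Only 3 member reads lay on transcripts that belonged mainly to another symbol, and the transcripts led by members carried 12 reads of other symbols, so the assignment to these 10 genes was nearly free of mixing in the table. How the authors treated reads from processed gene copies is not given in the sources used here, and a read from a near-identical copy could be counted under the member.

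Some members also carry small nucleolar RNA genes inside their own bounds, in the RefSeq annotation of GRCm38.p6. Nop56 held 5, Nop58 held 4, Ncl held 2 and Dkc1 held 1, which makes 4 of the 10 members and 12 small nucleolar RNA genes. Of the 21900 protein-coding genes in that annotation, 1.70% held at least 1. Of the box C/D protein genes, Nop56 and Nop58 are thus also hosts of box C/D RNAs such as Snord57 and Snord11, while Fbl held 0.

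RefSeq promoter windows (250 bases before to 50 after the start, GRCm38.p6) were found for 8 members, all but Npm1 and Fbl. The E-box CACGTG, a palindrome known as the binding sequence of Myc, was in 0 of the 8, against 7.24% of 27025 promoters with 1 window per gene. The letters CCGGAAG, searched on both strands and known as a core read by ETS factors, were in 3 of the 8, against 9.12% of promoters. These letters were picked after the windows had been seen, so the share is a description only, and TATAAA on either strand was in 1 of the 8 (Dkc1) against 14.2%. The 3 matches are shown because each lies close to the start site, from 43 to 14 bases before it (capitals mark the match, CTTCCGG being the reverse strand of CCGGAAG).
Gar1, chr3:129831421-129831451, minus strand: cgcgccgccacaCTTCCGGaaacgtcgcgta
Nhp2, chr11:51619738-51619768, plus strand: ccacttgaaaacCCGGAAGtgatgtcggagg
Nolc1, chr19:46075821-46075851, plus strand: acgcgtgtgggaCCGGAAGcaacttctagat

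Tail length set Nop10 apart from the other members. Among the other 9, neighbours in the order of mean tail length had overlapping ranges over the libraries. Nop10, a small protein that holds the catalytic part of the box H/ACA particle together with dyskerin, had median tails of 134.4 and 142.4 nt in WT 1 and WT 2, and of 141.4 and 135.5 nt in KO 1 and KO 2. Its lowest library lay above the highest library of each other member. These medians rested on 82, 87, 138 and 95 reads, and the 95% order-statistic intervals, which cover read sampling only, ran from 115.2 to 156.9 nt in WT 1 and from 132.9 to 150.1 nt in KO 1.

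Nop10 tails exceeded the median read of the same library by 36.7 nt ± 0.798 (SD, n = 4 libraries). The order-statistic intervals of its medians were far wider, so this SD may understate the spread. Nop10 lay above the library median in 4 of 4 libraries (exact sign-flip permutation test, two-sided, p = 0.125). With 4 libraries that is the smallest p the test allows, and the same p was reached by Gar1, in the other direction. Gar1 lay below the median of its library in 4 of 4, by 15.9 nt ± 9.65 (SD, n = 4). Each of the 10 members was compared in this way, and for the other 8 p ran from 0.25 to 1. Among the 1935 genes that reached 20 reads in every library, Nop10 stood between the 93.7th and the 96.8th percentile of tail length in the 4 libraries.

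**Figure D1:**
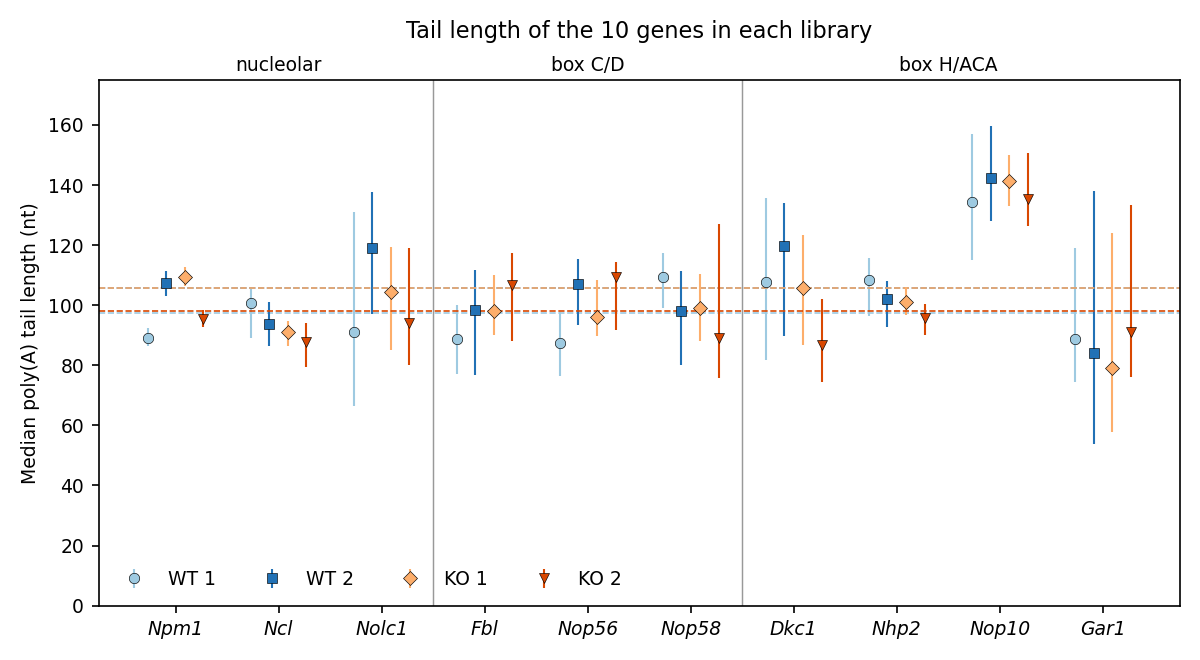
Median poly(A) tail length in nt of each member (points, with 95% order-statistic intervals over reads) in WT 1, WT 2, KO 1 and KO 2, with dashed lines at the median of all reads of each library. Nop10 sits between 134.4 and 142.4 nt in all 4 libraries, above the dashed lines, and Gar1 sits below them on few reads.

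The whole distribution of Nop10 was shifted, not only its middle. Its 10th percentile was 63.4, 81.1, 78.0 and 67.8 nt (in the order WT 1, WT 2, KO 1, KO 2, kept from here on), against 39.0, 44.3, 48.4 and 42.0 nt for Npm1. Tails of 150 nt or more made up 43.9%, 46.0%, 42.0% and 40.0% of its reads in the same order, while all reads of the libraries had 18.8% to 24.0%. Tails under 30 nt were in 0 of its 402 reads, which allows a share of up to 0.746% by a floor of 3 counts (counting error only). At the share of each library, 9.32 such reads would have fallen on it, and its shortest tail was 30.5 nt.

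**Figure D2:**
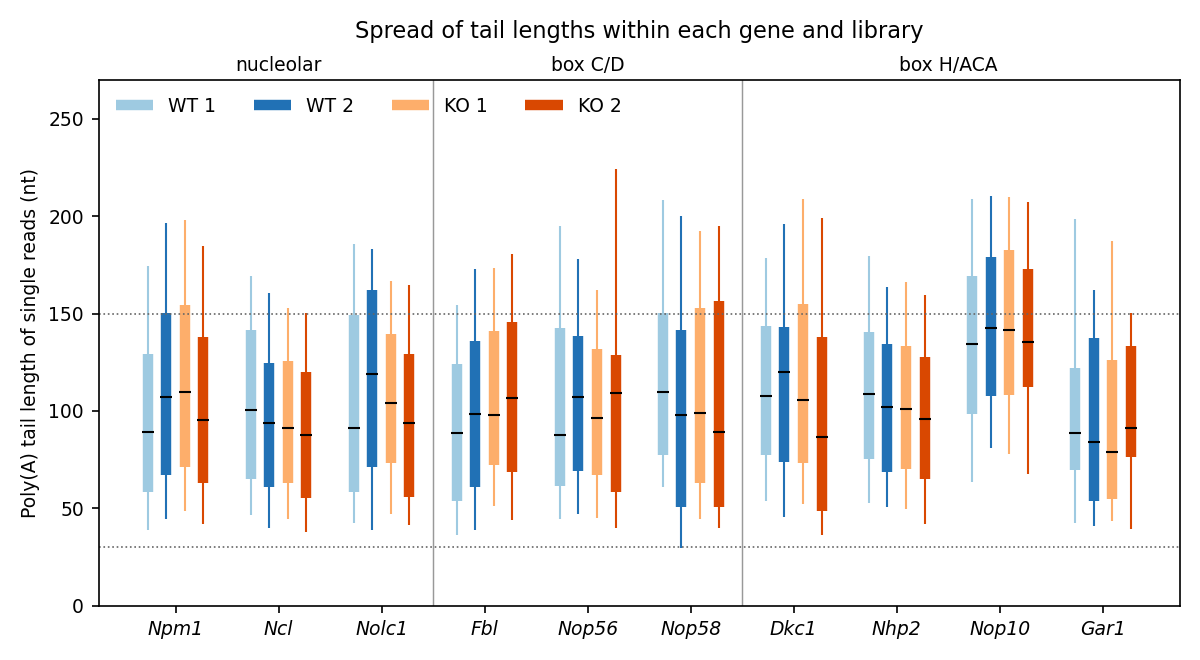
Tail length of single reads in nt for each member and library: thick bars from the 25th to the 75th percentile, thin lines from the 10th to the 90th, black dashes at the median, dotted lines at 30 and 150 nt. The 10th percentile of Nop10 (63.4 to 81.1 nt) is above that of Npm1 (39.0 to 48.4 nt) in each library.

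The partners of Nop10 in the box H/ACA particle did not share its tail length. Dkc1, which encodes the pseudouridine synthase dyskerin, had medians of 107.6, 119.8, 105.7 and 86.8 nt in WT 1, WT 2, KO 1 and KO 2. Nhp2, an RNA-binding core protein, had 108.5, 102.1, 101.1 and 95.6 nt. Gar1, which helps release the modified RNA, had 88.7, 84.3, 79.1 and 91.1 nt on 17 to 29 reads. Nop10 was longer than Dkc1 by 33.5 nt ± 11.5 (SD, n = 4), from 22.6 to 48.7 nt over the libraries, and longer than Gar1 by 52.7 nt ± 8.94 (SD, n = 4). The 4 members of 1 particle thus spanned the members' whole range, from 138.4 nt for Nop10 to 85.8 nt for Gar1 as means over the libraries.

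Box C/D members lay near the library medians, with Fbl and Nop58 below them in 3 of 4 libraries and Nop56 in 2 of 4. Fbl, the methyltransferase fibrillarin, had 88.7, 98.5, 98.1 and 106.7 nt in WT 1, WT 2, KO 1 and KO 2. Nop56 and Nop58, related scaffold proteins of the particle, had 87.6, 107.1, 96.1 and 109.4 nt, and 109.5, 98.0, 99.1 and 89.1 nt. Fbl and Nop56 were thus longest in KO 2, and Nop58 was longest in WT 1 and shortest in KO 2. The median over these 3 genes was 88.7, 98.5, 98.1 and 106.7 nt, against 102.1, 109.4, 110.0 and 102.0 nt over all 1935 genes tested.

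Among the nucleolar proteins, Npm1 followed its library and Ncl did not. Npm1, the histone chaperone nucleophosmin of the outer nucleolus, had medians of 89.2, 107.2, 109.6 and 95.6 nt, low in WT 1 and KO 2 and high in WT 2 and KO 1 as over all reads. On 1919 to 3187 reads its intervals were narrow, such as 86.4 to 92.3 nt in WT 1 and 103.0 to 111.2 nt in WT 2. The gap between the WT libraries was therefore larger than read sampling gives, and larger than the difference between genotypes. Ncl, the RNA-binding protein nucleolin, had 100.7, 93.7, 91.2 and 87.7 nt, and lay below its library's median by 10.4 to 14.6 nt in all libraries but WT 1. Nolc1, which binds both kinds of particle, had 91.1, 119.1, 104.2 and 93.9 nt on 41 to 78 reads.

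Below Nop10, neighbours in the order of tail length did not differ beyond their spread over the libraries, except that Ncl and Gar1 were at its edge. By the mean of the 4 library medians the order was Nop10, Dkc1, Nolc1, Nhp2, Npm1, Nop56, Nop58, Fbl, Ncl and Gar1. From Dkc1 to Fbl the means fell from 105.0 to 98.0 nt, and each step was smaller than its SD over the libraries. The steps from Fbl to Ncl (4.67 nt ± 12.7, SD, n = 4) and from Ncl to Gar1 (7.53 nt ± 7.40, SD, n = 4) were each in the same direction in 3 of 4 libraries. Of all pairs of members, Nhp2 and Ncl had the difference with the smallest SD. Nhp2 was longer than Ncl by 8.51 nt ± 0.952 (SD, n = 4) and in 4 of 4 libraries. Being the most even of many pairs, its SD may understate the spread. The order-statistic intervals of these genes overlapped in WT 1, WT 2 and KO 2, and not in KO 1.

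Between the genotypes, tail length did not pass the test for any member. Limma was fitted to log2 median tail length over those 1935 genes, and it called 0 of the 9 members tested and 0% of all genes at a Benjamini-Hochberg adjusted p of 0.05. Gar1 had 17 reads in KO 2 and was not in the test. At an unadjusted p under 0.05 it gave 0 members, and 2.33% of all genes. The adjusted p was 0.9998 for each member, and the median log2 change over the 9 was -0.07, beside 0.01 over all genes. The spread of that median between replicates was 0.06, and it was 0.04 without WT 2 and -0.14 without KO 1.

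For 3 of the 9 members both KO libraries lay below both WT libraries (Ncl, Dkc1 and Nhp2), and for 0 both lay above. Of all genes tested, 11.8% were lower in this sense and 14.7% higher. Ncl had 97.2 nt ± 4.90 in WT and 89.5 nt ± 2.49 in KO (SD, n = 2 each), which is -0.12 on the log2 scale (standard error 0.12). Nhp2 had 105.3 nt ± 4.56 and 98.4 nt ± 3.87 (SD, n = 2 each), which is -0.10 on the log2 scale (standard error 0.12). Dkc1 had the largest change of the 9, from 113.7 nt ± 8.62 to 96.3 nt ± 13.3 (SD, n = 2 each), a log2 change of -0.24 with a 95% interval from -0.57 to 0.08. Its groups came close to each other, 105.7 nt in KO 1 against 107.6 nt in WT 1.

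For the other members the groups overlapped. Nop10 had 138.4 nt ± 5.64 in WT and 138.5 nt ± 4.18 in KO (SD, n = 2 each), and the interval of its log2 change ran from -0.30 to 0.30. Npm1, with the most reads, had the narrowest interval, from -0.11 to 0.24 around a log2 change of 0.07. In this fit the width followed read number over all genes and not a gene's own spread between libraries. Npm1 itself had 98.2 nt ± 12.7 in WT and 102.6 nt ± 9.89 in KO (SD, n = 2 each). Fbl, Nop56, Nop58 and Nolc1 had log2 changes of 0.13, 0.08, -0.14 and -0.07. The sign for Npm1 turned to -0.07 without WT 1, and was 0.20 without WT 2.

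The share of long tails, of 150 nt or more, was lower in both KO libraries than in both WT libraries for 4 of the 9 members, Ncl, Nolc1, Nhp2 and Nop10, beside 13.2% of all 1935 genes, and higher for 0, beside 14.3%. Ncl had 20.5% and 13.3% in WT and 11.3% and 10.2% in KO. For Nhp2 it was 18.5% and 16.4% against 14.4% and 12.6%, and for Nolc1 24.4% and 33.8% against 19.2% and 15.8%. For Ncl, the Wilson 95% intervals of WT 2 (10.2 to 17.2%) and KO 1 (8.90 to 14.3%) overlapped, so the order of those libraries is within read sampling. The same holds for Nhp2 between WT 2 and KO 1, and for Nolc1 and Nop10 between WT 1 and KO 1, whose intervals overlapped too. The median difference over the 9 members was -1.47 percentage points, beside -0.20 over all genes. For tails under 30 nt, 0 of the 9 members were lower and 0 higher in both KO libraries, beside 21% and 6.15% of all genes. These shares come from the same reads as the medians and were not tested.

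**Figure D3:**
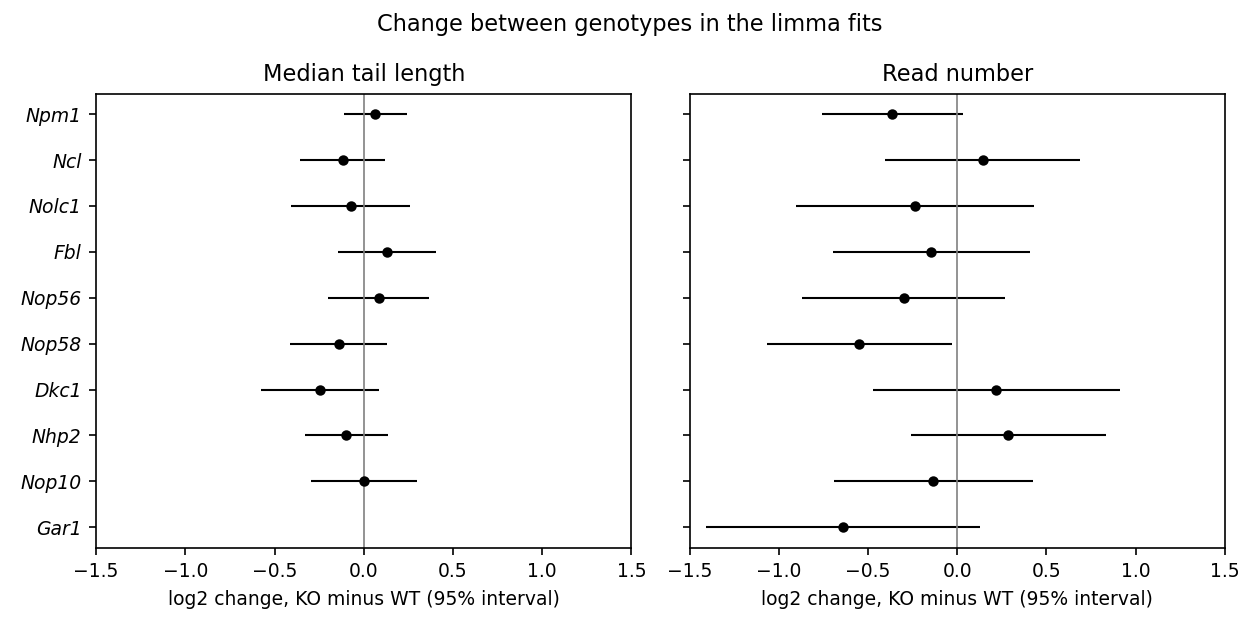
Log2 change between genotypes (KO minus WT) of median tail length (left, 9 members tested) and of read number (right, 10 members), as points with 95% intervals from limma. The tail intervals all include 0, and among the read number intervals only that of Nop58 (-1.07 to -0.03) leaves it out before adjustment.

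Read number was compared next, as a measure of RNA abundance. Values are RPM after median-of-ratios scaling, which sets the typical gene equal between libraries, and they count molecules without division by length. Npm1 had 6221 and 5294 in WT and 4528 and 4394 in KO, lower in both KO libraries. Nop58 was lower in both KO libraries too, with 431.6 and 493.8 in WT and 329.6 and 301.0 in KO. So was Gar1, with 63.1 and 60.7 in WT and 41.2 and 37.9 in KO, on 17 to 29 reads. The summed embryonic stem cell markers, given above, were likewise lower in both KO libraries, and their part in these values was not tested. Such a sum follows the markers with the most reads, and single markers are not given here. In bulk RNA, fewer cells that express a gene and less RNA per cell cannot be told apart.

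None of these passed the test. Limma's voom over 4815 genes called 0 of the 10 members at an adjusted p of 0.05, and 0.0208% of all genes, which was 1 gene, Mov10. Nop58 had the smallest p of the members, at -0.55 on the log2 scale (standard error 0.25) and a limma adjusted p of 0.456. Of the 10, it alone had an unadjusted p under 0.05 (0.0397), beside 10.4% of all genes. Npm1 had -0.36 (standard error 0.19, limma adjusted p = 0.531), and Gar1 -0.64 (standard error 0.37, limma adjusted p = 0.573). The 3 members without overlap, all lower in KO, compare with 20.7% of all genes in that direction, and 0 members were higher, beside 20%.

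Without WT 2, limma called Npm1, with a log2 change of -0.48 and an adjusted p of 0.0475, in a fit that called 8.97% of all 5086 genes and 2 of the 10 members, Npm1 and Nhp2. Over all alternatives its adjusted p ran from 0.0475 to 0.993. Its log2 change was -0.22 without WT 1, so the size depended on which WT library was kept. The direction could hardly turn, because both KO libraries lay below both WT libraries.

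**Figure D4:**
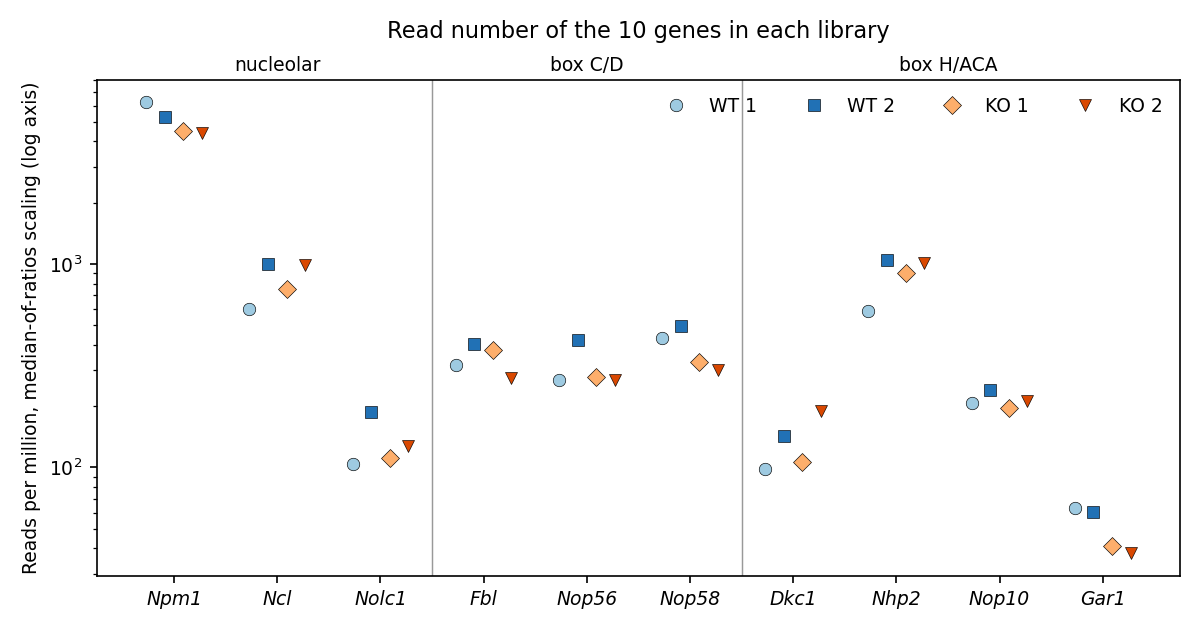
Read number in RPM after median-of-ratios scaling (log axis) for each member in WT 1, WT 2, KO 1 and KO 2. Npm1, Nop58 and Gar1 are lower in both KO libraries, and WT 1 is well below WT 2 for Ncl, Nolc1, Nop56 and Nhp2.

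For most other members the WT libraries differed more from each other than the genotypes did. Ncl had 603.2 in WT 1 and 995.9 in WT 2, against 753.0 and 983.2 in KO. Nhp2 had 585.5 and 1043 in WT, against 900.8 and 1012 in KO. In both, WT 1 was the lowest library. For Nhp2, WT 2 lay with the KO libraries, while for Ncl it lay with KO 2 and KO 1 fell between the WT libraries. The log2 change of Nhp2 was 0.29 (standard error 0.26, limma adjusted p = 0.748), it was 0.70 without WT 2 (limma adjusted p = 0.0369, a call, within a range of 0.0369 to 0.993 over the alternatives), and it was -0.11 without WT 1. Ncl had 0.14, and likewise 0.50 without WT 2 and -0.20 without WT 1.

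Nolc1 (103.5 and 187.6 in WT, 110.8 and 127.1 in KO), Nop56 (267.5 and 424.8, 277.0 and 269.8) and Fbl (318.0 and 405.5, 376.5 and 276.5) were highest in WT 2. Dkc1 (98.4 and 143.5, 106.6 and 189.5) was highest in KO 2 and lowest in WT 1. Nop10 varied least of the box H/ACA members, with 206.9 and 240.0 in WT and 196.1 and 211.8 in KO, a log2 change of -0.13. Whether its tail length and its read number were related was not tested. The median log2 change over the 10 members was -0.19, beside 0.00 over all genes, with a replicate spread of 0.21, and it was 0.03 without WT 2.

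By box class, all 3 box C/D genes had negative log2 changes in read number, with a median of -0.30 (replicate spread 0.25), and 2 of the 4 box H/ACA genes did, with a median of 0.04 (replicate spread 0.27). Single libraries turned both: without WT 2, 1 of the 3 box C/D genes was negative and the median was 0.03 (Fbl 0.04, Nop56 0.03), and without KO 2 Fbl was at 0.10. Without WT 1, all 4 box H/ACA genes were negative, with a median of -0.17, and without KO 2 that median was -0.14. The difference between the classes was not tested. Of all genes tested, 50% had a negative change. Neighbouring genes along the chromosome were read in the gene order of RefSeq. Among the 20 nearest tested genes, 6 were higher in KO around Npm1, 6 around Gar1 and 13 around Nop58, with median log2 changes of -0.24, -0.19 and 0.11, so the neighbours of Npm1 and Gar1 had the sign of the gene itself and those of Nop58 did not. Around Nhp2, on chromosome 11 like Npm1, 12 of 20 were higher, with a median of 0.21, again of the gene's own sign. The median of the neighbours also had the gene's sign for Ncl, Fbl, Dkc1 and Nop10, and the opposite sign for Nolc1 and Nop56. How often neighbours share a gene's sign over all genes is not given here, so no regional effect can be read from these values.

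WT 1 also differed from the other libraries in how reads fell on transcripts of Npm1 and Nop56. Npm1 had 3 transcripts with at least 20 reads in each library. Its most-read one, ENSMUST00000075641.9, took 89.0% of Npm1 reads in WT 1 (Wilson 95% interval 87.7 to 90.2%), against 76.0% in WT 2 and 72.2% and 71.6% in the KO libraries. The transcript ENSMUST00000093201.12 took 1.83% in WT 1, and 7.30%, 9.54% and 9.49% in the others. For Nop56, ENSMUST00000103198.10 took 80.2% in WT 1 and 61.0%, 58.5% and 60.3% in the others, and for Ncl, ENSMUST00000027438.7 took 92.5% against 86.1%, 79.2% and 84.8%. Nolc1 did not follow this, with 39.0% in WT 1 and 42.3 to 52.6% in the others, on few reads. For Ncl, the Wilson 95% interval of WT 1 (88.4 to 95.2%) overlapped that of WT 2 (82.2 to 89.3%).

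For Nop56, WT 2 thus lay near the KO libraries and WT 1 stood alone. For Npm1, WT 2 lay nearer to the KO libraries than to WT 1, but not with them. Its Wilson 95% interval for the most-read transcript (74.0 to 77.8%) was above those of KO 1 (70.6 to 73.7%) and KO 2 (69.6 to 73.5%). Whether read length or RNA integrity moved with this was not tested, because the table gives neither. The 3 Npm1 transcripts followed the library in tail length, with medians of 89.6, 86.0 and 89.8 nt in WT 1 and of 95, 95.7 and 96.4 nt in KO 2. In WT 2 they had 108.1, 99.6 and 107.8 nt, and in KO 1 110.6, 109.1 and 105.6 nt. Nhp2 reads lay almost wholly on 1 transcript, ENSMUST00000127405.1, with 1687 of 1698 reads, and Fbl, Dkc1, Nop10 and Gar1 had a single transcript each in the table.

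**Figure D5:**
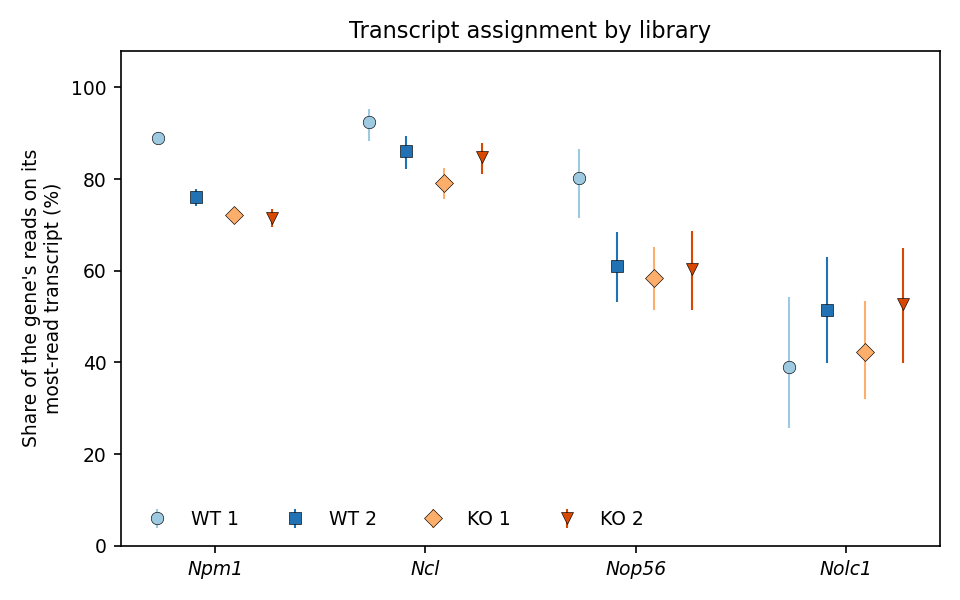
Share of a gene's reads on its most-read transcript (percent, points with Wilson 95% intervals) for Npm1, Ncl, Nop56 and Nolc1 in each library. In WT 1 the share is the highest of the 4 libraries for Npm1 (89.0%), Ncl (92.5%) and Nop56 (80.2%), and not for Nolc1 (39.0%).

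The deposited table also places genes in classes named for Mov10 targets with m6A, a methylated adenosine, Mov10 targets without m6A, and non-targets, whose source is not given in the sources used here. Fbl and Nolc1 were in the class with m6A. Npm1, Nop56, Dkc1 and Nhp2 were in the class without m6A. Nop10 and Gar1, the members with the longest and the shortest tails, were both non-targets, and Ncl and Nop58 were in no class. The classes thus held 2, 4, 2 and 2 members, while they held 14.2%, 37.2%, 30.03% and 18.6% of the 1935 genes tested.

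Genes that work beside the members showed no called change either. Of 16 genes of particle assembly and related steps, 10 were tested for tail length and 15 for read number, and 0 passed in either direction (limma, smallest adjusted p = 0.9998 and 0.541, with 0 at an unadjusted p under 0.05 in both). The 2 with the most reads were Snu13 and Ruvbl2. Snu13, the remaining core protein of the box C/D particle, had tails of 105.5, 120.7, 113.3 and 111.2 nt in WT 1, WT 2, KO 1 and KO 2, longer on average (112.7 nt) than Fbl, Nop56 and Nop58. Ruvbl2, an ATPase of particle assembly, had 99.9, 113.2, 98.0 and 109.9 nt. Their log2 changes in tail length were -0.01 and -0.04.

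Of 37 genes of ribosome assembly in the nucleolus, 26 were tested for tail length and 37 for read number, and 0 passed (limma, smallest adjusted p = 0.9998 and 0.359). At an unadjusted p under 0.05 there were 0 for tail length and 2, both lower in KO, for read number. Npm3, a relative of nucleophosmin, had tails of 105.0, 107.2, 99.3 and 108.8 nt, and Emg1, a methyltransferase of the small subunit, had 88.2, 95.9, 111.1 and 100.6 nt. These were the 2 with the most reads. Rsl24d1, named here after its values were seen, had tails of 149.6, 138.6, 157.9 and 123.8 nt on 37 to 56 reads, with a mean of 142.5 nt against 138.4 nt for Nop10. Over the 26 genes the median tail was 103.8, 106.0, 103.8 and 99.2 nt in WT 1, WT 2, KO 1 and KO 2, and over the 9 members it was 100.7, 107.1, 101.1 and 95.6 nt.

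Of 14 RNA polymerase I genes, 11 were matched by symbol, 3 were tested for tail length and 6 for read number, and 0 passed (limma, smallest adjusted p = 0.9998 and 0.566, with 0 at an unadjusted p under 0.05 in both). Polr1d and Polr1c, subunits shared with RNA polymerase III, had log2 changes in tail length of -0.08 and -0.18. Of 13 noncoding host genes of small nucleolar RNAs, such as Gas5 and Snhg1, 0 had a read in the table, in which only 44 of the 13831 symbols are long noncoding RNAs in RefSeq. Noncoding host genes were therefore not analysed here.

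Among the genes most like Npm1 over 8 values, the log2 median tail length and log2 RPM in each of the 4 libraries, were Rpl7 and Rpl19, at Euclidean distances of 0.28 and 0.32. Rpl7 had tails of 95.3, 111.1, 105.4 and 101.9 nt, and Rpl19 had 91.5, 97.2, 97.7 and 97.0 nt. Both encode ribosomal proteins. Their log2 changes in read number were -0.16 and -0.36, beside -0.36 for Npm1. RPM in each library was among the 8 values used to pick them, so closeness in these changes follows from the choice.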

How the data were processed

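Direct RNA nanopore reads came from 2 WT and 2 KO libraries. Per the labels' protocols, RNA was selected on oligo(dT) beads, which may lose molecules with very short tails. Minimap2 2.20 is named per the submitters' processing notes; the tool for tail length, the build and the filters are not given in the sources used here. The deposited table gives 1 row per read with an estimated tail length in nt, and 3 yes-or-no gene classes. Of 1903922 reads, 3 with a length of 0 were left out. Libraries were assigned by sample title.

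Tail length was tested with limma 3.58.1 in R 4.3.3 (log2 median per gene and library, at least 20 reads in each, trend on read number). Reads were counted per gene here and tested with voom (0.5 reads added, median-of-ratios scaling, mean of at least 10 reads). P-values were adjusted by Benjamini-Hochberg over all genes. Both fits were checked on simulated data. Python 3.11.15, pandas 2.3.3 and scipy 1.17.1 gave counts, medians and intervals.

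The members and lists were chosen with earlier results of these data known. All members are named; of each further list, genes past the threshold are named, or else the 2 with the most reads; of the 3 genes nearest to the member with the most reads, 1 is not reported here. Same-numbered libraries did not deviate together (r = 0.0135 over genes for tail length, 0.0155 for read number).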

Additional observations from a re-analysis of the deposited data

How the results depend on the processing

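Calls over all genes were few and moved with the fit. For tail length, a minimum of 10 reads gave 1 call (0 in the main test) and leaving out a library gave 0 to 2. For read number, the main test gave 1, scaling by total reads 7, no filter on low read numbers 96, at least 20 reads in each library 0, 2 reads added with a limma trend 0, and leaving out a library 0 to 456 (90 without WT 1, 456 without WT 2, 0 without KO 1 or KO 2). The numbers of the libraries do not pair them by the labels; a replicate block gave 0 calls for tail length and 65 for read number, and 0 members among them in either. The median change over members in tail length was 0.000817 with a minimum of 50 reads (7 members) and ran from -0.138 to 0.0424 with a library left out; that in read number ran from -0.257 to 0.0344. Causes were not tested.

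In tail length, the log2 change reversed to -0.0117 for Nop56 with the mean of log2 lengths and to -0.00202 for Nop10 with centred libraries. With a library left out it ran from -0.0677 to 0.198 for Npm1, -0.27 to 0.12 for Nolc1, -0.0408 to 0.0424 for Nop10 and -0.0622 to 0.228 for Nop56. In read number it ran from -0.13 to 0.69 for Dkc1, -0.36 to 0.10 for Fbl, -0.20 to 0.50 for Ncl, -0.11 to 0.70 for Nhp2, -0.65 to 0.18 for Nolc1 and -0.613 to 0.0311 for Nop56. The direction held under all alternatives run for the tails of Ncl, Nhp2, Dkc1, Fbl and Nop58 and for the read numbers of Npm1, Nop58, Gar1 and Nop10. For the tails of Ncl, Nhp2 and Dkc1 and the read numbers of Npm1, Nop58 and Gar1, the genotypes did not overlap. Leaving out a library could thus hardly turn their direction. How often it held over all genes is not given here. With total-read scaling the all-gene median was 0.11. The alternative that kept only reads with the most frequent symbol of their transcript, and the one that left Npm1 out of the median, were chosen after seeing the data. With a library left out, a lone library is assumed to vary like the others. Reads of 17 to 85 per library limit Gar1, Dkc1 and Nolc1.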
